A study of Mus musculus with 12 samples.

Results

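The insulin-like growth factor (IGF) system of the thymus was followed through 10 genes, the ligands Igf1 and Igf2, the receptors Igf1r and Igf2r, and the binding proteins Igfbp2, Igfbp3, Igfbp4, Igfbp5, Igfbp6 and Igfbp7. They were taken by symbol from the 22843 genes of the deposited mRNA table, by adding up the rows of each symbol, and all 10 were among the 14805 genes with enough counts to be tested. The genes had been picked because of how their counts moved with age in these same libraries. Their values are therefore given as a description, with fitted changes and standard errors but with no p-value.

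IGFs are secreted growth factors related to insulin. Igf1 is produced in response to growth hormone, mainly by the liver but also locally by stromal cells and macrophages, while Igf2 is the ligand of fetal and early postnatal life and is expressed from the paternal allele. Both signal through the tyrosine kinase Igf1r, whereas Igf2r (the cation-independent mannose 6-phosphate receptor) removes Igf2 and carries lysosomal enzymes. Binding proteins hold secreted IGFs in the extracellular space, and proteases release them again.

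Whole thymuses of male wild type C57BL/6 mice were taken at 3 ages, 2-week-old (2W), 6-week-old (6W) and 3-month-old (3M), with 2 libraries of each kind at each age. No treatment or transgene was involved, and the labels do not say how many animals went into a library. At each age there were ribosomal RNA-depleted libraries, in which mRNAs and circRNAs were read, and small RNA libraries. The comparisons ask how the thymus changes with age, between 2W and 6W, between 6W and 3M, and over the whole span. The replicates were described as biological, and the errors below measure only the spread between these libraries.

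The mRNA libraries held 16355849 to 22387100 estimated counts. Levels are given as normalised CPM (estimated counts scaled to library size with edgeR's TMM factors) where one gene is compared between ages. FPKM, the deposited value per length and sequencing depth, is used where different genes are compared. Markers of cortical thymocytes (Rag1, Dntt, Cd8a) and thymic epithelium (Prss16, Ccl25, Krt8) were abundant in all 6 libraries, and no gene of any marker list was at 0 in all of them. Because whole organs were sequenced, fewer cells of a type and less RNA per cell cannot be told apart.

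The sequences around the start sites of the neighbouring genes Igfbp5 and Igfbp2 on chromosome 1 are shown first, because the mRNA of Igfbp5 had the largest difference of the set while that of Igfbp2 differed by little more than its error. Each window holds the 250 bases before the RefSeq start (GRCm38.p6), and capitals mark matches to the motifs searched, TATTTAA in Igfbp5 and GGGCGG in Igfbp2. The Igfbp5 window is chr1:72874866-72875115 (minus strand) and the Igfbp2 window is chr1:72824230-72824479 (plus strand).
Igfbp5: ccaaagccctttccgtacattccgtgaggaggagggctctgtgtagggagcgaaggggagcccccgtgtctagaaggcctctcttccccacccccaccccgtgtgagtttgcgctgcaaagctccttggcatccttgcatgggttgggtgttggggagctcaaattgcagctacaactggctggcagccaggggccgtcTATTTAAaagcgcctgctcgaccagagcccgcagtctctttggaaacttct
Igfbp2: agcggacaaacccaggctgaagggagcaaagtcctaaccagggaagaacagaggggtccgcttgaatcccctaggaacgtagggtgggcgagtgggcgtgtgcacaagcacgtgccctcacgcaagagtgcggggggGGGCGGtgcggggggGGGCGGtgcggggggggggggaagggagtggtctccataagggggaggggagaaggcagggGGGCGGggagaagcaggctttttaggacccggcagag
The AT-rich motif TATTTAA begins 51 bases before the Igfbp5 start, and the GC box GGGCGG begins 113, 98 and 37 bases before this Igfbp2 start. RefSeq gives Igfbp2 a second start, whose window (chr1:72825137-72825386) held none of the motifs searched. On either strand, 4.18% of 32851 mouse windows of this length held TATTTAA and 32.7% held GGGCGG. The other letters searched were TATAAA, found in 12.4% of windows, and CCAAT, found in 33.8%; no motif contains another. TATAAA lay 28 bases before the start of Igfbp4 and 148 bases before that of Igfbp6, and the remaining members had none in any of their windows. These matches describe the letters only.

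Igfbp5, a secreted binding protein that also attaches to extracellular matrix, had the largest difference with age. Its level was 58.7 and 63.6 CPM in the 2W libraries, 276 and 227 CPM at 6W, and 560 and 557 CPM at 3M. Both 6W libraries were above both 2W libraries, and both 3M libraries were above both 6W libraries. The fitted log2 fold change was 2.04 ± 0.13 (SE) for 6W against 2W, 1.15 ± 0.13 for 3M against 6W and 3.19 ± 0.14 for 3M against 2W. The ratio of mean CPM was 4.11, 2.22 and 9.13 in the same order. Of all genes tested, 219, 286 and 151 had a larger log2 fold change in these comparisons. Only 1 transcript carried the Igfbp5 counts, so no shift between isoforms enters the sum.

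**Figure D1:**
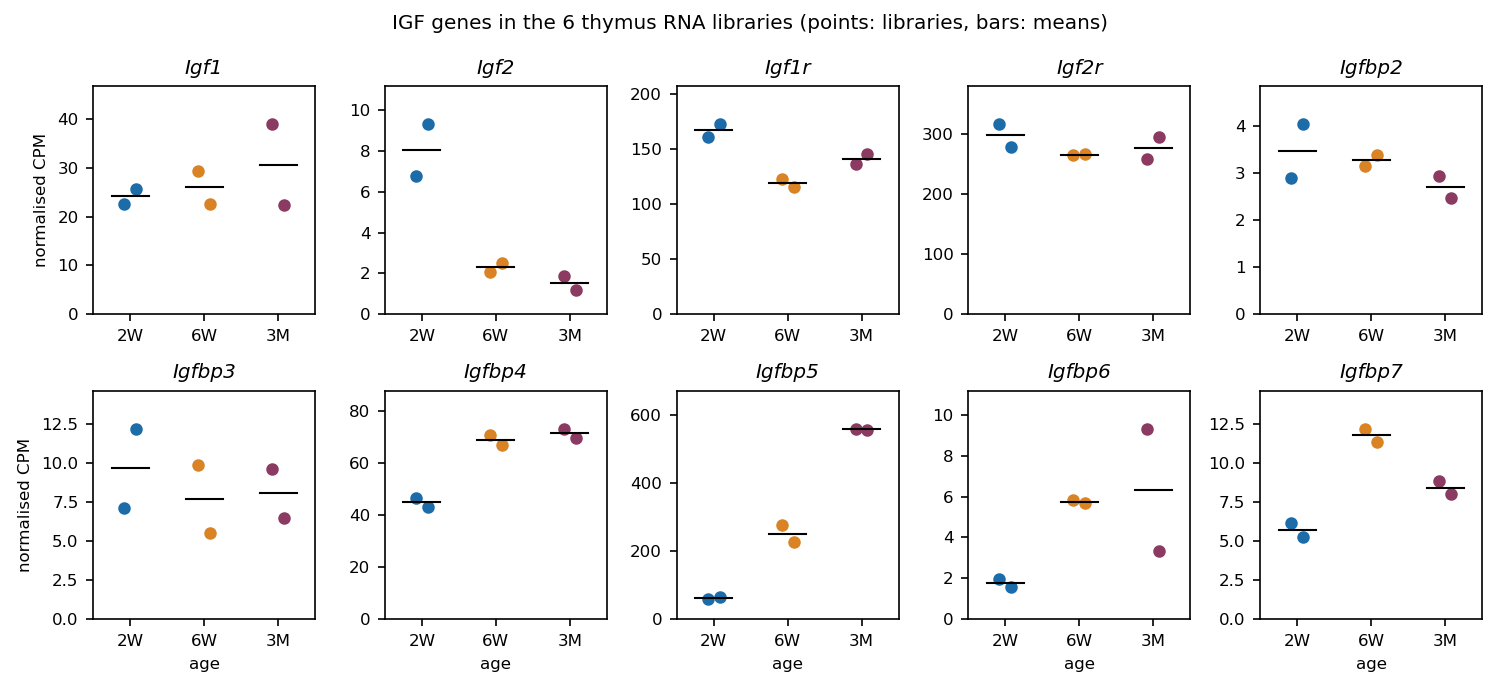
Level of each of the 10 IGF genes in normalised CPM (vertical axis, own scale for each gene, starting at 0) by age (horizontal axis); points are libraries and bars are the means of 2 libraries. Igfbp5 climbs from 58.7 and 63.6 CPM at 2W to 560 and 557 CPM at 3M, while the 3M points of Igf1 and Igfbp6 lie far apart.

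Among the ligands, Igf2 went the other way. It was read at 6.76 and 9.32 CPM at 2W, at 2.08 and 2.52 CPM at 6W and at 1.86 and 1.21 CPM at 3M. On the CPM scale the 3 ages did not overlap, and the 2W libraries were highest. In FPKM 2W was likewise highest, but 6W (0.49 and 0.62) and 3M (0.52 and 0.37) overlapped, and the 3M against 6W difference was -0.27 on log2 FPKM. Log2 fold changes were -1.80 ± 0.32 (SE) for 6W against 2W, -0.59 ± 0.33 for 3M against 6W and -2.40 ± 0.33 for 3M against 2W, and 81, 837 and 55 of the genes tested had a smaller value. These levels rest on few fragments, with 107 and 152 estimated counts at 2W against 31.3 and 27.1 at 3M. The program that split reads among isoforms placed Igf2 differently from library to library. The transcript assembled by the study as TCONS_00114009 took 50.4% to 84.1% of the Igf2 counts in 5 libraries and none in 3M replicate 2, where ENSMUST00000097936 took 58.3%. The sum over transcripts, and not any isoform, is therefore used for Igf2.

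Igf1 showed no such separation on the CPM scale. It was measured at 22.6 and 25.8 CPM at 2W, 29.4 and 22.6 CPM at 6W, and 39.0 and 22.4 CPM at 3M. The ages overlapped throughout, with 3M replicate 1 above all other libraries and 3M replicate 2 below them. The log2 fold change was 0.10 ± 0.27 (SE) for 6W against 2W, 0.24 ± 0.27 for 3M against 6W and 0.34 ± 0.27 for 3M against 2W. Without 3M replicate 1, the 3M against 6W value was -0.21. In FPKM, however, Igf1 was 5.79 and 5.19 at 2W and 8.51 and 8.76 at 6W, without overlap, and the log2 FPKM difference was 0.65. FPKM weighs each transcript by its length; ENSMUST00000095360 took 83.0% and 84.7% of the Igf1 counts at 2W, 78.9% and 70.5% at 6W, and 80.1% and 75.7% at 3M. Whether Igf1 differed between 2W and 6W thus depends on the unit. The same holds for 3M, where both libraries (9.06 and 6.32 FPKM) were above both 2W libraries in FPKM. In 3M against 6W the log2 FPKM difference was -0.19.

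The balance of the ligands, taken from FPKM, was tilted to Igf1 at each age and more so after 2W. The Igf1 to Igf2 ratio of FPKM was 3.64 and 2.34 at 2W, 17.4 and 14.1 at 6W, and 17.4 and 17.1 at 3M. Both later ages lay above 2W without overlap, and in this unit 6W and 3M overlapped. That overlap need not hold in CPM, since only there were both 3M libraries of Igf2 below both 6W libraries. The summed FPKM of both ligands was 7.38 and 7.41 at 2W, 9.00 and 9.38 at 6W, and 9.58 and 6.69 at 3M, so the 3M libraries spanned the other ages.

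The Igf2 locus also holds miR-483 in an intron of Igf2, and the neighbouring H19 RNA is the host of miR-675. Their mature sequences are given because they were read in separate small RNA libraries that played no part in choosing the genes; capitals mark the seed, bases 2 to 8.
mmu-miR-483-5p: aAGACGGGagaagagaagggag
mmu-miR-675-3p: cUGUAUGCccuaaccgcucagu
In RefSeq (GRCm38.p6, minus strand) they lie at chr7:142654968-142654989 and chr7:142577078-142577099, and their seeds differ. Tags of miR-483-5p numbered 2 and 4 in the 2W libraries and 0 in the 6W and 3M libraries. Those of miR-675-3p numbered 3 in both 2W libraries, 3 and 0 at 6W, and 0 at 3M. Neither passed the filter on low counts that kept 822 of 2006 miRNAs, so neither was tested, and a count of 0 allows up to 0.273 to 0.327 CPM of miRNA tags (3 tags, counting error only). A change in either miRNA was not detectable at this depth.

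Of the receptors, Igf1r differed between the ages and Igf2r hardly did. Igf1r, the signalling receptor, had 161 and 173 CPM at 2W, 122 and 116 CPM at 6W, and 136 and 146 CPM at 3M. Its 3 ages did not overlap, with 6W lowest and 3M in between. The log2 fold change was -0.49 ± 0.11 (SE) for 6W against 2W, 0.25 ± 0.11 for 3M against 6W and -0.24 ± 0.11 for 3M against 2W. Igf2r, which clears Igf2, had 316 and 278 CPM at 2W, 264 and 266 CPM at 6W, and 258 and 295 CPM at 3M. The 6W libraries were just below the 2W libraries, and 3M overlapped both ages. The 3 log2 fold changes of Igf2r were -0.17 ± 0.12, 0.06 ± 0.12 and -0.10 ± 0.12 in the same order. A noncoding RNA, Airn, runs antisense through Igf2r, and the sources used here do not say whether counting used the strand.

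CircRNAs, closed loops made by back-splicing, were listed for the receptors only. Of the 6300 circRNAs listed, 2 came from Igf1r and 2 from Igf2r, and none was assigned to any of the other 8 members. The Igf1r circRNAs had 18 back-splice reads in all, 1 and 3 at 2W, 5 and 2 at 6W, and 2 and 5 at 3M. Those of Igf2r had 7, which came from 2W replicate 2 (4 reads) and 6W replicate 2 (3 reads). With so few reads, no difference in age was detectable for either receptor.

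Of the remaining binding proteins, Igfbp4, Igfbp6 and Igfbp7 were higher at 6W than at 2W. Igfbp4, which inhibits IGF action and is cut by the protease Pappa, had 46.4 and 43.2 CPM at 2W, 70.8 and 66.7 CPM at 6W, and 73.0 and 69.6 CPM at 3M. The 2W libraries were below all others, and 6W and 3M overlapped. Its log2 fold change was 0.62 ± 0.11 (SE) for 6W against 2W, 0.05 ± 0.11 for 3M against 6W and 0.67 ± 0.11 for 3M against 2W. Igfbp4 thus differed between 2W and 6W by much more than its spread, and between 6W and 3M by less.

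Igfbp7, a related protein that binds IGFs weakly, peaked at 6W. Its level was 6.13 and 5.27 CPM at 2W, 12.2 and 11.3 CPM at 6W, and 8.84 and 7.97 CPM at 3M. The 3 ages did not overlap. Log2 fold changes were 1.04 ± 0.18 (SE) for 6W against 2W, -0.48 ± 0.17 for 3M against 6W and 0.56 ± 0.18 for 3M against 2W.

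Igfbp6, a binding protein that prefers Igf2, was read at 1.96 and 1.59 CPM at 2W, 5.82 and 5.69 CPM at 6W, and 9.32 and 3.31 CPM at 3M. All later libraries were above the 2W libraries, but the 3M libraries lay on both sides of 6W. The log2 fold change of Igfbp6 was 1.69 ± 0.49 (SE) for 6W against 2W, 0.12 ± 0.45 for 3M against 6W and 1.82 ± 0.49 for 3M against 2W. The last of these was 0.92 without 3M replicate 1, and the 3M against 6W value moved between -0.79 and 0.64 as single libraries were left out. From 26 to 155 estimated counts of Igfbp6 were read in a library.

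Igfbp2 and Igfbp3 did not separate the ages by a clear margin. Igfbp2, a binding protein abundant in fetal tissues, had 2.91 and 4.05 CPM at 2W, 3.15 and 3.40 CPM at 6W, and 2.95 and 2.46 CPM at 3M. The 3M libraries were below the 6W libraries, and both ages overlapped 2W. Its log2 fold changes were -0.09 ± 0.28 (SE), -0.28 ± 0.29 and -0.37 ± 0.29 for 6W against 2W, 3M against 6W and 3M against 2W. Igfbp3, the main carrier of IGFs in blood, had 7.14 and 12.2 CPM at 2W, 9.89 and 5.52 CPM at 6W, and 9.62 and 6.50 CPM at 3M. Replicates of Igfbp3 differed more than the ages did, and all ages overlapped. The log2 fold changes of Igfbp3 were -0.33 ± 0.38, 0.06 ± 0.38 and -0.27 ± 0.38 in the same order.

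**Figure D2:**
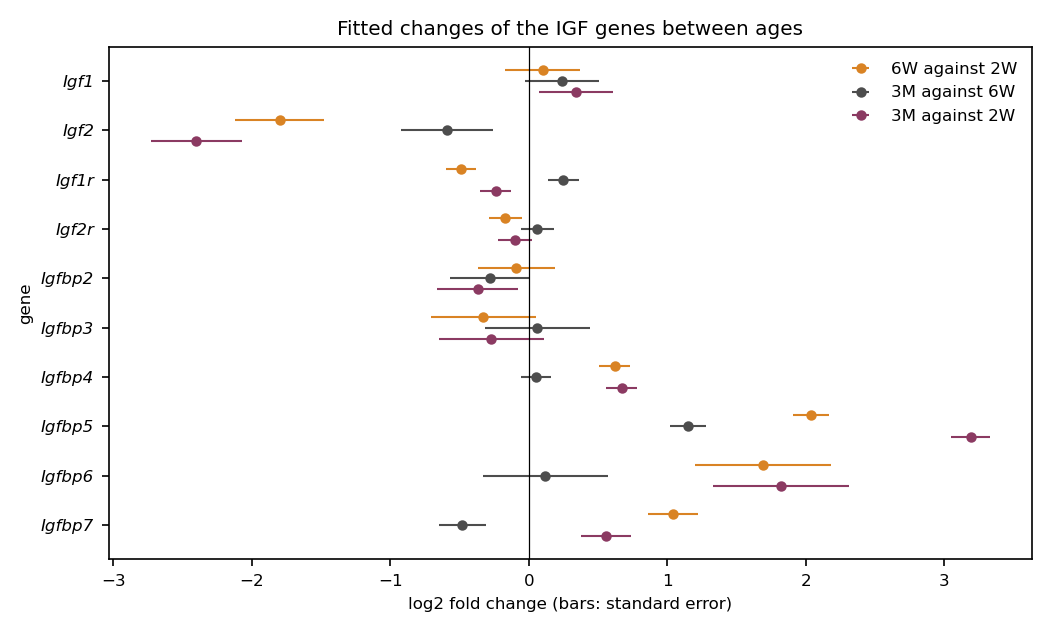
Fitted log2 fold change of each IGF gene (horizontal axis) in the 3 comparisons (colours); bars are standard errors and the vertical line marks no change. The points of Igfbp5 lie at 2.04, 1.15 and 3.19, and those of Igf2 at -1.80, -0.59 and -2.40.

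Counted over the set, an absolute log2 fold change over 1 was found for 4 of the 10 genes in 6W against 2W (Igf2, Igfbp5, Igfbp6 and Igfbp7), where 8.59% of all genes tested had one. In 3M against 6W it was found for Igfbp5 alone (4.55% of all genes), and in 3M against 2W for Igf2, Igfbp5 and Igfbp6 (12.2% of all genes). Libraries of the ages compared did not overlap for 7, 5 and 6 of the 10 members, and for 57.8%, 49.2% and 51.8% of all genes tested. Nothing is read from these counts, since the genes were chosen on the same comparisons. The median log2 fold change of the members was 0.01, 0.06 and 0.12, against -0.01, 0.02 and -0.03 over all genes tested.

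Compared per length, the order of the members changed with age at its top and its bottom. At 2W, Igf2r had the highest FPKM with 29.8 ± 2.63 (SD, n = 2), followed by Igf1r with 13.1 ± 0.651, Igfbp4 with 10.4 ± 0.516, Igfbp5 with 9.08 ± 0.537, Igf1 with 5.49 ± 0.424 and Igfbp7 with 4.54 ± 0.453. Below them, Igfbp3 (3.56 ± 1.32 FPKM) overlapped Igfbp7 and Igfbp2 (2.77 ± 0.714 FPKM), and Igf2 (1.91 ± 0.446 FPKM) overlapped Igfbp6 (1.73 ± 0.622 FPKM). Igfbp5 was thus the fourth of the set in the youngest thymus. At 6W it came first with 39.6 ± 5.73 FPKM, ahead of Igf2r with 28.2 ± 0.0141 and Igfbp4 with 17.0 ± 0.806. Igfbp7 (9.94 ± 0.537 FPKM) and Igf1r (9.87 ± 0.460 FPKM) overlapped there, Igf1 (8.64 ± 0.177 FPKM) and Igfbp6 (6.30 ± 0.198 FPKM) came next, and Igfbp3 (3.01 ± 1.23 FPKM) overlapped Igfbp2 (2.85 ± 0.0495 FPKM). Igf2 was last with 0.555 ± 0.0919 FPKM.

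At 3M Igfbp5 stood at 87.2 ± 1.91 FPKM (SD, n = 2), far above Igf2r with 29.2 ± 3.54 FPKM. Igfbp4 (17.4 ± 0.134 FPKM) and Igf1r (11.6 ± 0.842 FPKM) followed without overlap. Igf1, Igfbp6 and Igfbp7 could not be ordered, since the spread of Igfbp6 (7.12 ± 4.94 FPKM) covered Igf1 (7.69 ± 1.94 FPKM) and Igfbp7 (7.05 ± 0.325 FPKM). Igfbp3 (3.11 ± 0.778 FPKM) lay below Igf1 and Igfbp7, but its higher library (3.66 FPKM) overlapped the lower one of Igfbp6 (3.63 FPKM). Igfbp2 (2.21 ± 0.0495 FPKM) and Igf2 (0.445 ± 0.106 FPKM) closed the order without overlap.

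The summed FPKM of the 6 binding proteins was 31.4 and 32.8 at 2W, 84.3 and 73.0 at 6W, and 127 and 121 at 3M, with no overlap between ages. Igfbp5 made up 27.7% and 28.8% of that sum at 2W, 51.7% and 48.7% at 6W, and 67.5% and 73.1% at 3M. Over the same ages the share of Igfbp4 was 34.4% and 30.7%, then 20.8% and 22.5%, then 13.8% and 14.3%. The mixture of binding protein mRNAs therefore passed from one led by Igfbp4 to one led by Igfbp5.

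**Figure D3:**
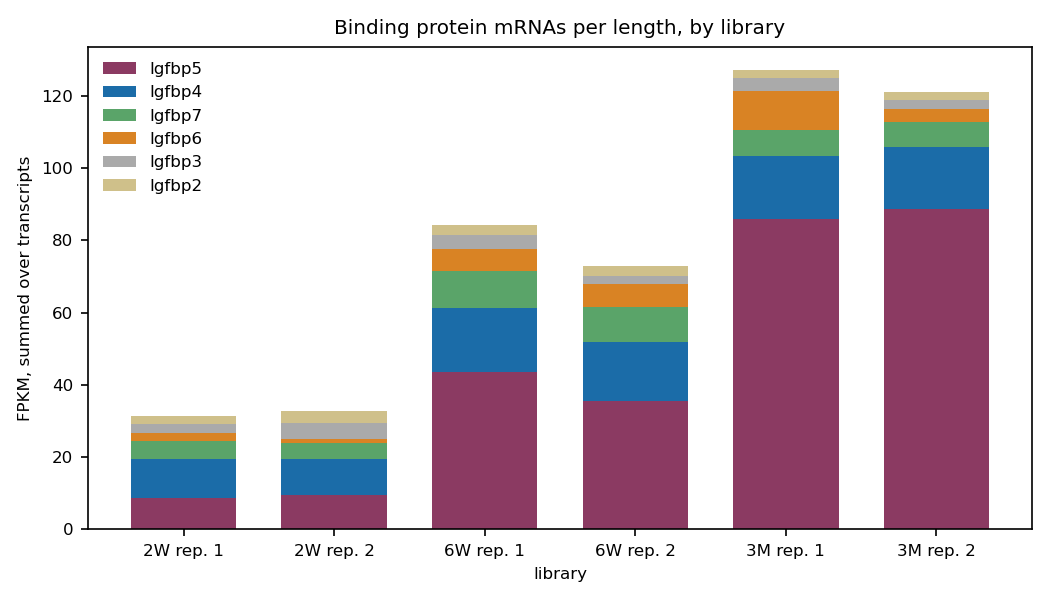
FPKM of the 6 binding proteins (vertical axis, stacked from 0) in each of the 6 libraries (horizontal axis). The stack grows from 31.4 and 32.8 FPKM at 2W to 127 and 121 FPKM at 3M, and most of the growth is the Igfbp5 segment at the bottom.

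Set against the ligands, the ratio of summed binding protein FPKM to summed ligand FPKM was 4.26 and 4.43 at 2W, 9.37 and 7.78 at 6W, and 13.3 and 18.1 at 3M. Without Igfbp5 the ratio was 3.08 and 3.15 at 2W, 4.52 and 3.99 at 6W, and 4.31 and 4.86 at 3M. The 6W and 3M libraries were then both above 2W and overlapped each other. Igfbp5 exceeded its chromosomal neighbour Igfbp2, whose window is printed above, by 3.85 and 2.89 times in FPKM at 2W, 15.5 and 12.3 times at 6W, and 38.2 and 40.6 times at 3M. These are ratios of mRNA and say nothing of protein.

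Genes that act with the IGF system were read from 8 lists, which hold 108 genes other than the members; 92 were tested. A gene was counted past the study threshold when edgeR's quasi-likelihood test gave p under 0.05 before adjustment and its log2 fold change was over 1 or under -1. By this rule 6 of 92 (6.52%) passed in 6W against 2W, 2 (2.17%) in 3M against 6W and 12 (13%) in 3M against 2W, beside 5.36%, 2.11% and 9.35% of all genes tested. Of these, 4, 1 and 9 were higher at the later age, beside 4.48%, 1.29% and 7.67% of all genes, and 2, 1 and 3 were lower, beside 0.878%, 0.817% and 1.68%. At a Benjamini-Hochberg adjusted p under 0.05 the counts were 4 (4.35%), 1 (1.09%) and 10 (10.9%), beside 1.74%, 0.00675% and 11% of all genes. These shares are a description, and no test set them against the background. In the first comparison the 4 adjusted calls became 0 without 2W replicate 2, 6W replicate 1 or 6W replicate 2, became 1 without 2W replicate 1, and became 7 without either 3M library. In 3M against 2W, the 10 adjusted calls became 4 without either 2W library and 6 without either 6W library, and the replicate block, which fits the replicate number as a term, gave 1, 0 and 6 calls in the 3 comparisons.

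IGF availability, the list of further binding proteins and of the proteases and cofactors that act on them, held 3 of the 6 genes that passed in 6W against 2W, 1 of 2 in 3M against 6W and 7 of 12 in 3M against 2W, and 15 of 17 were tested. Past the study threshold, 3 were higher and none lower in 6W against 2W, 1 was higher in 3M against 6W, and 6 were higher and 1 lower in 3M against 2W. The list's median log2 fold change was 0.50, 0.29 and 0.40, against -0.01, 0.02 and -0.03 over all genes. Igfbp1 and Igfbpl1, both on this list, had 0 to 4 and 0 to 2 estimated counts in a library and were not tested.

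Htra1, a secreted serine protease that cleaves Igfbp5, was read at 1.52 and 1.96 CPM at 2W, 9.60 and 7.86 CPM at 6W, and 9.56 and 11.7 CPM at 3M. Its 2W libraries were far below the rest. Htra1 rose by a log2 fold change of 2.32 ± 0.24 (SE, edgeR adjusted p = 0.023) in 6W against 2W and 2.61 ± 0.25 (adjusted p = 0.0056) in 3M against 2W. The related Htra3 rose by 1.58 ± 0.27 in 3M against 2W (adjusted p = 0.019), while its 6W against 2W value of 1.36 ± 0.27 had an adjusted p of 0.068. Plau, the urokinase-type plasminogen activator, stood at 12.2 and 12.6 CPM at 2W, 28.0 and 28.5 CPM at 6W, and 27.6 and 26.7 CPM at 3M. Plau rose by 1.18 ± 0.11 in 6W against 2W (adjusted p = 0.023) and by 1.13 ± 0.11 in 3M against 2W (adjusted p = 0.0062).

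Other proteases of the list were past the study threshold only in comparisons with 3M. Adam28, a metalloprotease that cleaves Igfbp3, rose by a log2 fold change of 1.66 ± 0.21 (SE) in 3M against 2W (edgeR adjusted p = 0.0089). Adamts1 rose by 1.12 ± 0.23 in the same comparison (adjusted p = 0.029), and its 3M against 6W value of 1.04 ± 0.23 had an adjusted p of 0.21. Pappa, the protease of Igfbp4, was 1.19 ± 0.38 higher in 3M against 2W with an adjusted p of 0.10. Pappa no longer passed the study threshold without 2W replicate 1 (0.77) or 3M replicate 1 (1.06), nor did Adamts1 without 3M replicate 2 (0.97 in 3M against 2W and 0.88 in 3M against 6W). Adam12, which cleaves Igfbp3 and Igfbp5, went down from 104 and 114 CPM at 2W to 63.7 and 61.1 CPM at 6W and 38.4 and 44.2 CPM at 3M. The log2 fold change of Adam12 was -0.80 ± 0.12 in 6W against 2W (adjusted p = 0.036) and -1.39 ± 0.12 in 3M against 2W (adjusted p = 0.0056). Proteases of the same binding protein therefore moved in opposite directions.

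**Figure D4:**
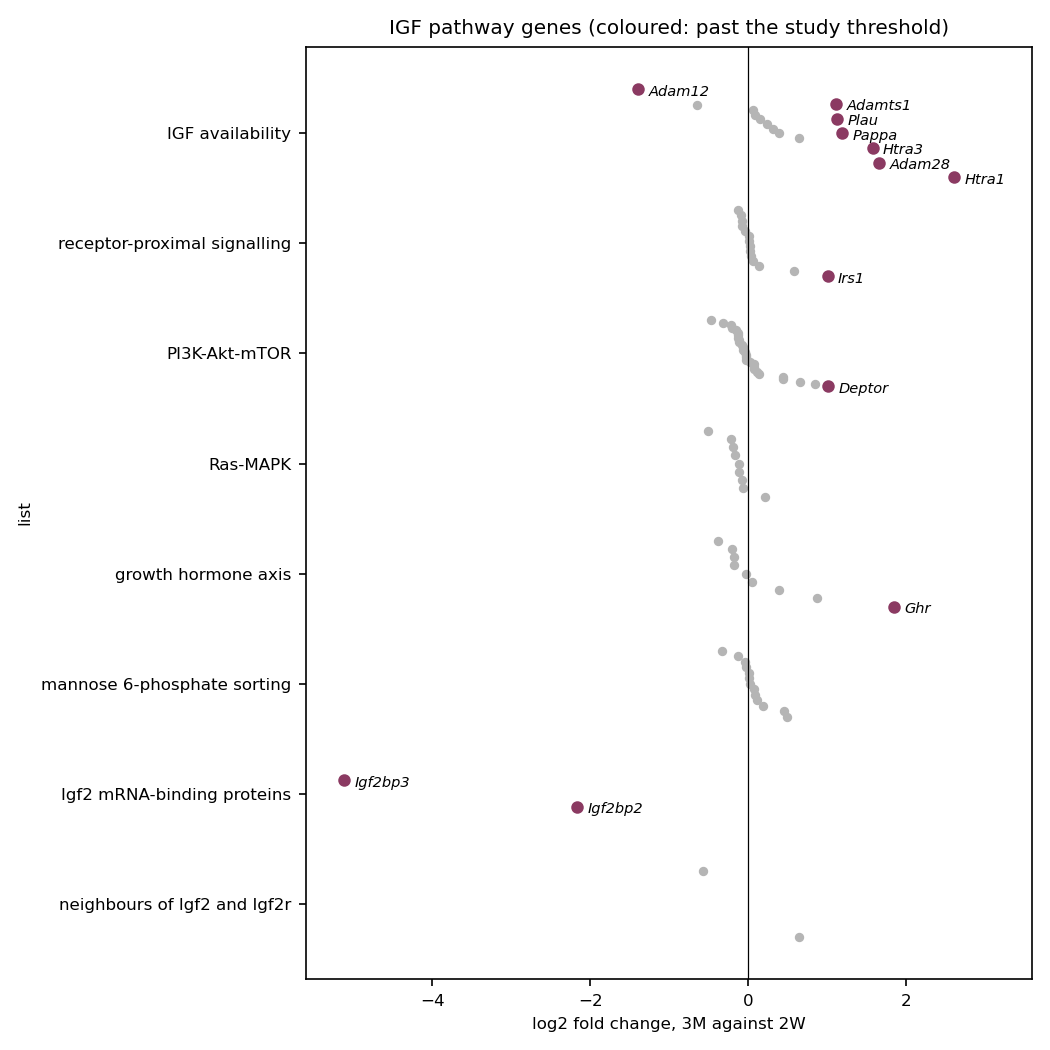
Log2 fold change in 3M against 2W (horizontal axis) of the 92 tested pathway genes, 1 point a gene, by list (vertical axis); coloured points are past the study threshold, and height within a list has no meaning. Of the 12 coloured genes, 7 are in IGF availability, and Igf2bp3 at -5.12 is farthest from 0.

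Lists of signalling downstream of Igf1r were read in the same way. In the receptor-proximal list, 14 of 16 were tested and 1, the adaptor Irs1, was past the study threshold in 3M against 2W (log2 fold change 1.01 ± 0.33 SE, edgeR adjusted p = 0.10). Insr, the insulin receptor, had log2 fold changes of -0.19, 0.10 and -0.08 in the 3 comparisons. In the PI3K-Akt-mTOR list all 28 were tested. Ddit4, an mTORC1 inhibitor, was past the study threshold in 6W against 2W (1.26 ± 0.37, adjusted p = 0.16), and so was Deptor, an mTOR-binding inhibitor, in 3M against 2W (1.02 ± 0.30, adjusted p = 0.081). Irs1 and Deptor stood at 0.58 and 0.50 without 3M replicate 1, and at 0.71 and 0.87 without 2W replicate 1. Ddit4 no longer passed without 2W replicate 2 (1.15). The kinase subunit Pik3cb rose by 0.66 ± 0.12 in 3M against 2W (adjusted p = 0.020). None of the 9 Ras-MAPK genes passed in any comparison.

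The growth hormone receptor Ghr, through which growth hormone raises Igf1, was read at 6.51 and 7.79 CPM at 2W, 13.8 and 13.1 CPM at 6W, and 36.4 and 15.4 CPM at 3M. It rose by a log2 fold change of 1.85 ± 0.39 (SE) in 3M against 2W (edgeR adjusted p = 0.031), with 3M replicate 1 high as for Igf1. Without 3M replicate 1 the log2 fold change of Ghr was 1.13. Ghr was 1 of 9 tested genes of its list of 12 to pass. Of the 13 genes of mannose 6-phosphate sorting, the lysosomal route that Igf2r serves, none was past the study threshold, and the adaptor Gga2 rose by 0.46 ± 0.10 in 3M against 2W (adjusted p = 0.039). M6pr, the other mannose 6-phosphate receptor, had log2 fold changes of 0.13, 0.06 and 0.19.

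The list of proteins that bind Igf2 mRNA held Igf2bp3, whose log2 fold change was farthest from 0 of the tested pathway genes in each comparison. Igf2bp3 was read at 80.0 and 101 CPM at 2W, 15.5 and 16.8 CPM at 6W, and 2.77 and 2.46 CPM at 3M. Its log2 fold change was -2.49 in 6W against 2W (edgeR adjusted p = 0.0077), -2.63 in 3M against 6W (adjusted p = 0.040) and -5.12 in 3M against 2W (adjusted p = 0.00063). In the 3M against 6W comparison that call rests on the settings: no pathway gene had an adjusted p under 0.05 with 4 libraries, the replicate block, exact symbols or limma, or without any single library other than 2W replicate 2, and DESeq2 called 2. The 3M against 6W log2 fold change of Igf2bp3 itself stayed between -2.70 and -2.44. Igf2bp2 had log2 fold changes of -1.96 ± 0.54 (SE, adjusted p = 0.13) in 6W against 2W and -2.17 ± 0.55 (adjusted p = 0.054) in 3M against 2W, and without 6W replicate 2 its first value was -1.46 and no longer past the study threshold. Igf2bp2 was near the floor, with 30.1 and 25.6 estimated counts at 2W, 12.8 and 6.41 at 6W, and 6.40 and 8.64 at 3M. Igf2bp1 was not tested. Of the 10 neighbours of Igf2 and Igf2r, 2 were tested and neither passed.

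Genes with a pattern most like each ligand were named by Pearson correlation of log2(CPM + 0.5) over the 6 libraries, as a description with no test, since the points share library depth and age. For Igf2 they were Arid2 (r = 0.999), Cdca4 (0.998), Bard1 (0.998), Kpna2 (0.997) and Fam221a (0.996). Arid2 went from 512 and 550 CPM at 2W to 388 and 366 CPM at 3M, a much smaller range than that of Igf2. For Igf1 they were Trim5 (0.992), Pla2g4a (0.989), Cavin2 (0.987), Il1rap (0.979) and Mocs3 (0.976). Trim5 was likewise highest in 3M replicate 1 with 26.2 CPM and lowest in 3M replicate 2 with 12.5 CPM. Mocs3 was nearly flat, between 7.08 CPM in 3M replicate 2 and 7.94 CPM in 3M replicate 1, a much smaller range than that of Igf1.

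Markers of the cells that a thymus can hold moved with some of these values. The 10 fibroblast markers (led in FPKM by Dcn, Col3a1 and Postn, in CPM by Col3a1) summed to 600 and 666 CPM at 2W, 657 and 616 CPM at 6W and 531 and 421 CPM at 3M. That sum was carried by collagens: in 3M against 2W, Col3a1 and Col1a1 had log2 fold changes of -1.23 and -1.22 (edgeR adjusted p = 0.0079 and 0.0062), while Dcn (1.44, adjusted p = 0.018), Pdgfra (1.38, adjusted p = 0.013) and Dpt (1.02, adjusted p = 0.042) rose. In that comparison 5 of the 10 were higher and 4 lower without overlap, beside 27.7% and 24% of all genes tested. In FPKM the sum was 113 and 128 at 2W, 161 and 150 at 6W, and 147 and 110 at 3M. Endothelial markers (Pecam1, Cdh5, Egfl7) summed to 238 to 266 CPM in all libraries, and those of pericytes and smooth muscle (Rgs5, Notch3, Acta2) to 307 and 318 CPM at 2W, 267 and 261 CPM at 6W and 271 and 293 CPM at 3M. In FPKM the pericyte and smooth muscle sum was 52.3 and 54.4 at 2W, 59.8 and 58.9 at 6W and 56.1 and 62.9 at 3M, lowest at 2W. In 3M against 2W, 5 of its 8 tested genes were higher and 1 lower without overlap, beside 27.7% and 24% of all genes tested. Thymic epithelial markers summed to 1760 and 1624 CPM at 2W, 1834 and 1784 CPM at 6W and 2069 and 2209 CPM at 3M, higher at each age without overlap. Most of the rise from 2W to 3M came from Prss16 (mean 632 and 866 CPM) and Ly75 (268 and 439 CPM). The list's median log2 fold change in 3M against 2W was 0.16, against -0.03 over all genes. Gene by gene, 3 of the 10 epithelial markers were higher and 2 lower without overlap in 3M against 6W, beside 25.9% and 23.3% of all genes tested. In 3M against 2W, 4 were higher and 1 lower, beside 27.7% and 24%. These counts are near the shares over all genes. Single genes of the endothelial and pericyte lists went beyond their sums in 3M against 2W, with log2 fold changes of 1.17 for Acta2 (edgeR adjusted p = 0.013), 1.18 for Vwf (adjusted p = 0.018) and -0.63 for Notch3 (adjusted p = 0.049). Of the thymic epithelial markers, Ly75 (0.71, edgeR adjusted p = 0.014) and Prss16 (0.45, adjusted p = 0.031) rose and Foxn1 (-0.82, adjusted p = 0.047) fell. The marker genes given with single values here were chosen after their values were seen.

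Macrophage markers (Vcam1, C1qb, C1qa) summed to 428 and 386 CPM at 2W, 789 and 720 CPM at 6W and 712 and 880 CPM at 3M, and all 10 were higher without overlap at both later ages than at 2W. Adipocyte markers (Cfd, Fabp4, Adipoq) summed to 59.5 and 58.1 CPM at 2W, 188 and 184 CPM at 6W and 416 and 223 CPM at 3M, and all 9 were higher without overlap at both later ages. Both sums were thus higher at the ages at which Igfbp4, Igfbp5, Igfbp6 and Igfbp7 were higher than at 2W. Mesothelial markers (Msln, Krt19, Upk3b) summed to 15.0 to 17.3 CPM at 2W, 31.1 to 34.9 CPM at 6W and 41.4 and 18.7 CPM at 3M. They too were above 2W in all later libraries, with 6 of 6 genes higher without overlap at 6W and 3 of 6 at 3M, and higher in 3M replicate 1, like Igfbp6. Beside these macrophage, adipocyte and mesothelial counts, 28% of all genes tested were higher without overlap in 6W against 2W and 27.7% in 3M against 2W. The double-positive thymocyte sum went down from 16090 and 18030 CPM at 2W to 13160 and 12840 CPM at 3M. Rag1 made up most of it (mean 10290 CPM at 2W and 7629 CPM at 3M). In 3M against 2W, 7 of the 10 were lower without overlap, beside 24% of all genes tested, and 0 passed the study threshold. In FPKM the sum was 3812 and 4066 at 2W, 3952 and 3972 at 6W, and 3234 and 3351 at 3M.

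Liver markers (Trf, Alb, Apoa1) summed to 314 and 301 CPM at 2W, 344 and 107 CPM at 6W and 462 and 152 CPM at 3M. Trf made up most of the lower sums, with 102 and 147 CPM in replicate 2 of 6W and 3M. Alb, the albumin of hepatocytes, was at 152 and 134 CPM at 2W, at 124 and 0.839 CPM at 6W, and at 182 and 2.02 CPM at 3M. Igf1, a product of liver among other tissues, was in CPM likewise the higher of its pair in 6W replicate 1 and 3M replicate 1. In FPKM 6W replicate 1 was the lower of its pair for Igf1 (8.51 against 8.76). The adipocyte sum, Ghr and Igfbp6 were also higher in 3M replicate 1 than in 3M replicate 2. Of the 7 skeletal muscle markers, only Myh4 and Myl1 were tested, and they summed to 0.948 to 2.59 CPM. The part of these cell types in the IGF values was not tested.

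**Figure D5:**
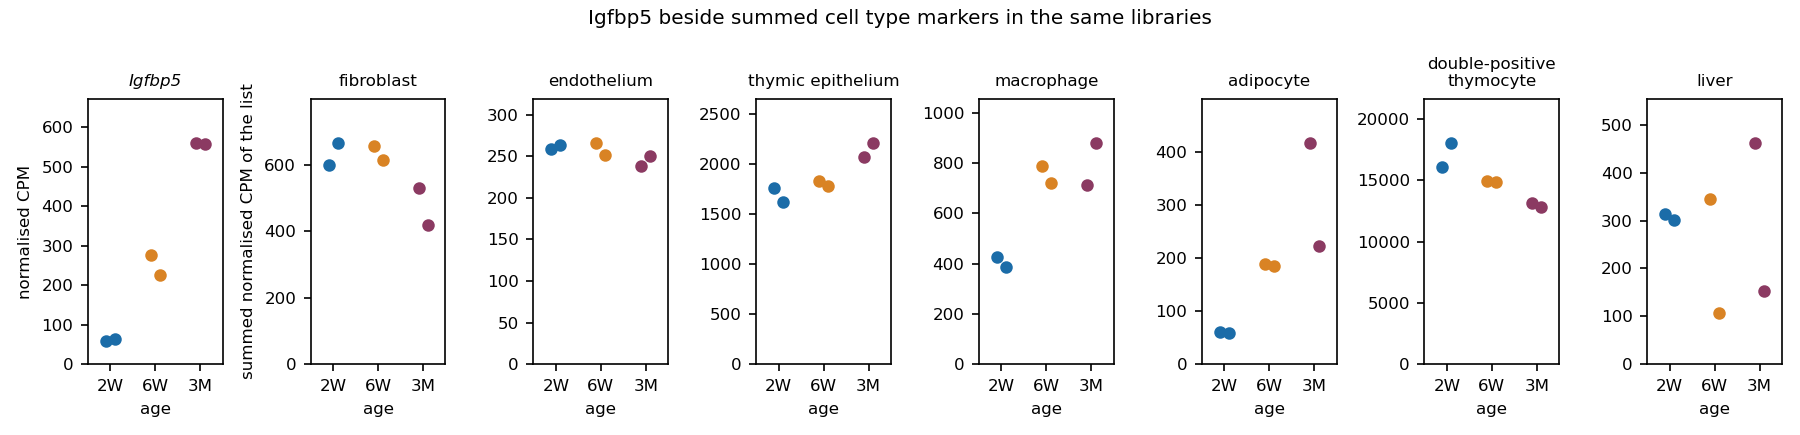
Igfbp5 (first panel, normalised CPM) and the summed normalised CPM of 7 marker lists (other panels, each with its own axis from 0) by age; points are libraries. Igfbp5 climbs at each age, macrophage and adipocyte sums are higher after 2W, and the liver sum differs between replicates at 6W and 3M.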

How the data were processed

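Thymus RNA of mice at 3 ages was read in 6 RNA and 6 small RNA libraries, 2 per age, and samples were grouped by their labels. The authors deposited estimated counts and FPKM per transcript (77525 transcripts), back-splice read counts and RPM per circRNA, and tag counts and TPM (tags scaled to depth) per miRNA. The submitters' processing notes name Bowtie 0.12.2 and mm8. The program behind the estimated counts is not given in the sources used here. The deposited lncRNA table pairs no gene symbols with its rows, so the planned look at H19, Airn and other lncRNAs of these loci was not made; that table was not used here, and neither were the RPM and TPM columns.

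Estimated counts were summed over the transcripts of a symbol (spellings differing only in case were joined, 665 genes; no member was affected) and rounded. Another 372 rows without a symbol, 0.70% to 1.20% of the counts, were left out. Genes passing filterByExpr were fitted with edgeR 4.0.16 (R 4.3.3; TMM, quasi-likelihood, all 6 libraries, age as the only term, prior count 0.125, Benjamini-Hochberg over 14805 genes). FPKM was summed over transcripts. The fit was tested on simulated data. The members and all lists were chosen with earlier results of these data known. All 10 members are named, with every pathway gene past the study threshold (p under 0.05 before adjustment, log2 fold change over 1 or under -1). Also named are the 3 most abundant genes of a marker list (by mean FPKM) and the 5 genes most like each ligand (mean of at least 1 CPM). Pathway genes under that fold were added by name after their values were seen (Insr, M6pr, and Pik3cb and Gga2 for their adjusted p). Between libraries of one age, counts differed by more than counting noise, so none was taken as a duplicate. Promoter windows and miRNA sequences are from RefSeq (GRCm38.p6), where all 10 members had an entry. DESeq2 1.42.0 and limma 3.58.1 (on log2 of FPKM + 0.1) were alternatives, beside total-count scaling, no filter, exact symbols, prior count 2, only the 4 libraries compared, the replicate block, and each library left out. Python 3.11.15 and pandas 2.3.3 joined the tables.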

Additional observations from a re-analysis of the deposited data

How the results depend on the processing

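Of 420 alternative values of the members, 392 moved by less than 1 SD between replicates and 28 by more. That SD is wide where replicates lay far apart (0.62 for Igfbp6 and 0.52 for Igfbp3, log2 CPM). It also comes from the same libraries that were left out, so these counts say little about stability. The sign changed in 3 of 14 alternatives for Igfbp6 and 2 of 14 for Igf1 and Igfbp3 in 3M against 6W. For Igf2, Igf1r, Igfbp4, Igfbp5 and Igfbp7 it changed in none. Igfbp5 stayed between 1.89 and 2.18, 1.02 and 1.30, and 3.13 and 3.26 (6W against 2W, 3M against 6W, 3M against 2W) as single libraries were left out, and Igf2 between -2.01 and -1.53, -0.92 and -0.36, and -2.70 and -2.14; Igf2 was -1.88 in 3M against 2W on log2 FPKM. Of 322 pathway gene values 303 kept their side of the study threshold and 19 no longer passed it, mostly for Irs1, Deptor, Pappa and Adamts1. Counts at an adjusted p under 0.05 depended most on the settings. Over all genes in 6W against 2W, 257 became 395 with total counts, 467 with no filter, 662 with 4 libraries, 124 with exact symbols, 888 with DESeq2, 402 with limma and 0 to 658 without single libraries. In 3M against 6W, 1 became 19 with no filter, 341 with DESeq2, 0 with 4 libraries, exact symbols or limma, and 0 to 11 without single libraries. In 3M against 2W, 1630 became 663 with 4 libraries and 239 to 1741 without single libraries. For pathway genes, 4 became 7 with 4 libraries, 8 with DESeq2 and 0 to 7 without single libraries in 6W against 2W. In 3M against 6W, 1 became 0 with 4 libraries, exact symbols or limma, 2 with DESeq2 and 0 to 1 without single libraries. In 3M against 2W, 10 became 6 with 4 libraries, 15 with DESeq2 and 4 to 13 without single libraries. The replicate block gave 5, 0 and 742 genes and 1, 0 and 6 pathway genes. Same-numbered libraries deviated with correlations of -0.06 (2W and 6W), -0.18 (2W and 3M) and 0.35 (6W and 3M). The report's fit did not take the numbers as pairs, although the 6W and 3M correlation was positive. Whether same-numbered 6W and 3M libraries share an effect was not tested. At the study threshold in 3M against 6W, all genes numbered 219 to 668 without single libraries (312 in the report's fit; 668 without 3M replicate 2), and pathway genes 2 to 5, or 1 with limma (2). The causes were not tested. The miRNAs of the Igf2 and H19 loci were not tested, so they have no alternatives. Igf2, Igfbp2 and Igfbp6 rest on few counts, with 26 to 155 in a library, and the pathway gene Igf2bp2 on fewer, with 6.40 to 30.1.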
